A study of Rattus norvegicus with 4 samples.

Results

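The fibroblasts of library 2 were 444 cells, 5.27% of the 8426 barcodes of that library that passed filtering (95% interval 4.8% to 5.77%) out of 33175 barcodes past filtering in the whole series. They were chosen by measured values. A barcode needed at least 500 detected genes, at most 20% of its UMIs (unique molecular identifiers, 1 per captured transcript) from mitochondrial genes, and at least 3 UMIs and 10 UMIs per 10000 from Dcn, Lum and Pdgfra together. The neuron genes Snap25, Stmn2, Nefl and Prph had to stay under 40 UMIs per 10000. The same gate found 7194 cells in library 1 (73.2% of 9828), 1447 in library 3 (22.4% of 6473) and 1199 in library 4 (14.2% of 8448). The other 7982 barcodes of library 2 and the 7194 cells of library 1 were the sets against which the library 2 fibroblasts were described.

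The study profiled single cells of sciatic nerve and dorsal root ganglion from Sprague Dawley rats, each tissue at postnatal day 1 and at 8 weeks, with 1 library per group and sex not determined. The labels do not state how many animals went into a library. They describe primary Schwann cell culture in medium with 10% fetal bovine serum and do not say whether the sequenced cells were cultured. Libraries carry only a number at the end of each barcode, which none of the sources used here ties to a tissue or an age, so tissue and age cannot be told apart from any other difference between libraries. With 1 library on each side no test between libraries was possible. Levels are UMIs of a gene per 1000000 summed UMIs of a set of cells (CPM), so levels of different genes are shares of captured 3′ ends, and log2 ratios are taken between such levels. Every interval is an exact 95% interval for counting error only. Genes of the cells that the gate chose are described, not tested.

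Fibroblasts build the connective tissue of the peripheral nervous system. They lie between nerve fibres in the endoneurium, in the outer epineurium and in the capsule around ganglia. They secrete fibrillar collagens and the small proteoglycans that space collagen fibrils. In mice, Pi16 marks fibroblasts of the adventitia and of outer sheaths, and Sox9 and Osr2 are used as markers of endoneurial fibroblasts.

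Other markers of the cell type went with the label. The 11 fibroblast markers that the gate did not use, among them Col1a1, Col3a1, Gsn and Pcolce, summed to 428 UMIs per 10000 in the library 2 fibroblasts and to 3.21 in the other barcodes of library 2. At least 3 UMIs and 10 per 10000 from these markers were found in 443 of the 444 cells. Markers of Schwann cells or satellite glia stood at 4.15 per 10000 (20 cells past that level), endothelial markers at 1.13 (6 cells), mural markers at 0.732 (5 cells), macrophage markers at 0.219 (2 cells), and T or NK cell markers at 0.015 (0 cells). Perineurial markers, which belong to the sheath around nerve fascicles, stood at 3.57 (32 cells). In all, 66 of the 444 cells (14.9%) also carried the markers of some other non-neuronal class. No doublet caller was run, and these cells were left out in an alternative.

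The summed depth of the 444 cells was 3332287 UMIs, with a median of 6941 per cell (776 to 24758) and a median of 2172 genes. The cells of library 1 held 62188871 UMIs (median 7724), those of library 3 held 9481649 (median 5710) and those of library 4 held 17328876 (median 13064). The other barcodes of library 2 were shallow, with a median of 1530 UMIs. Mitochondrial genes took a median of 4.89% of UMIs in the library 2 fibroblasts, against 3.8% in library 1 fibroblasts. Barcode sequences were shared between library 2 and library 1 (26), library 3 (26) and library 4 (31), and 3 of the 444 cells were among them.

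Among the gate's genes, Dcn had a median of 153 UMIs per 10000 per cell (0 cells without a UMI, highest 499), Lum 44.6 (3 cells without, highest 186) and Pdgfra, a receptor for platelet-derived growth factor, 1.52 (161 cells without, highest 16.5). Decorin and lumican, the products of the first pair, bind collagen fibrils. These values chose the cells. The gate had a soft edge on the neuron side and a sharp one on the fibroblast side. Only 3 cells lay just inside the fibroblast threshold (10 to under 20 per 10000) and 2 just outside it (5 to under 10), while 428 of 444 stood at 40 or more. On the neuron side 18 cells lay just inside the neuron threshold (30 to under 40 per 10000) and 8 just outside (40 to under 50). In all, 184 barcodes passed every other criterion and failed the neuron threshold; their median was 1506 UMIs and 9.04 per 10000 for Col1a1 plus Col3a1, against 240 in the cells with a gate value of at least 40.

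The fibroblasts of library 2 fell into 2 kinds of cell that hardly mixed. Apod, an apolipoprotein that binds small lipids, had the highest level of all genes, 52260 CPM, and the spread of Apod between cells was the widest among genes with a mean of at least 0.1 UMI once cells were thinned to 1000 UMIs, with a ratio of variance to mean of 72.3. Igfbp5, which binds insulin-like growth factors, followed at 23.8. Apod was at 0 UMIs in 152 of the 444 cells, had a median of 318 per 10000 and reached 2343. Igfbp5 was at 0 in 146 cells, had a median of 8.77 per 10000 and reached 709. The other genes with a wide spread were Apoe (20.6), Gsn (20.1), Mgp (14.3), Pi16 (10.7), Myoc (10.6), Cxcl1 (9.97), AC134224.3 (9.58), Col1a1 (9.05), Tagln (8.41) and Col3a1 (7.92). The value of Tagln, a smooth muscle cytoskeletal gene, rested on few cells, since 33 cells had a UMI and 1 of them held 45.1% of its 317 UMIs.

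Cells were therefore split by Apod plus Myoc (at least 100 per 10000) and by Igfbp5, Mfap5 and Pi16 together (at least 50 per 10000). Myoc encodes myocilin, a secreted protein of the eye and of peripheral nerve, Mfap5 a microfibril protein, and Pi16 a membrane protein used as a marker of adventitial fibroblasts in mice. These genes and cutoffs were picked after the spread had been seen, so the split is a description. Of the 444 cells, 229 were Apod Myoc cells (51.6%, 46.8% to 56.3%), 176 were Igfbp5 Mfap5 Pi16 cells (39.6%, 35.1% to 44.4%), 10 were both (2.25%) and 29 were neither (6.53%). Of those 29, 19 carried markers of another class. In library 1 the 4 shares were 44.5%, 26.4%, 3.13% and 26%, in library 3 they were 36.8%, 29%, 0.0691% and 34.1%, and in library 4 they were 21.1%, 21.4%, 0% and 57.5%. Myoc was at 0.105 CPM in library 3 and 0.231 CPM in library 4, so there the Apod Myoc cells were chosen on Apod alone. In library 3, 503 of the 532 Apod Myoc cells and 319 of the 420 Igfbp5 Mfap5 Pi16 cells also carried markers of another class, and erythroid markers passed in 1263 of its 1447 fibroblasts; the part of these markers in the results for library 3 was not tested. In library 2 the median depths were 6395 UMIs in Apod Myoc cells and 7969 in Igfbp5 Mfap5 Pi16 cells.

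**Figure D1:**
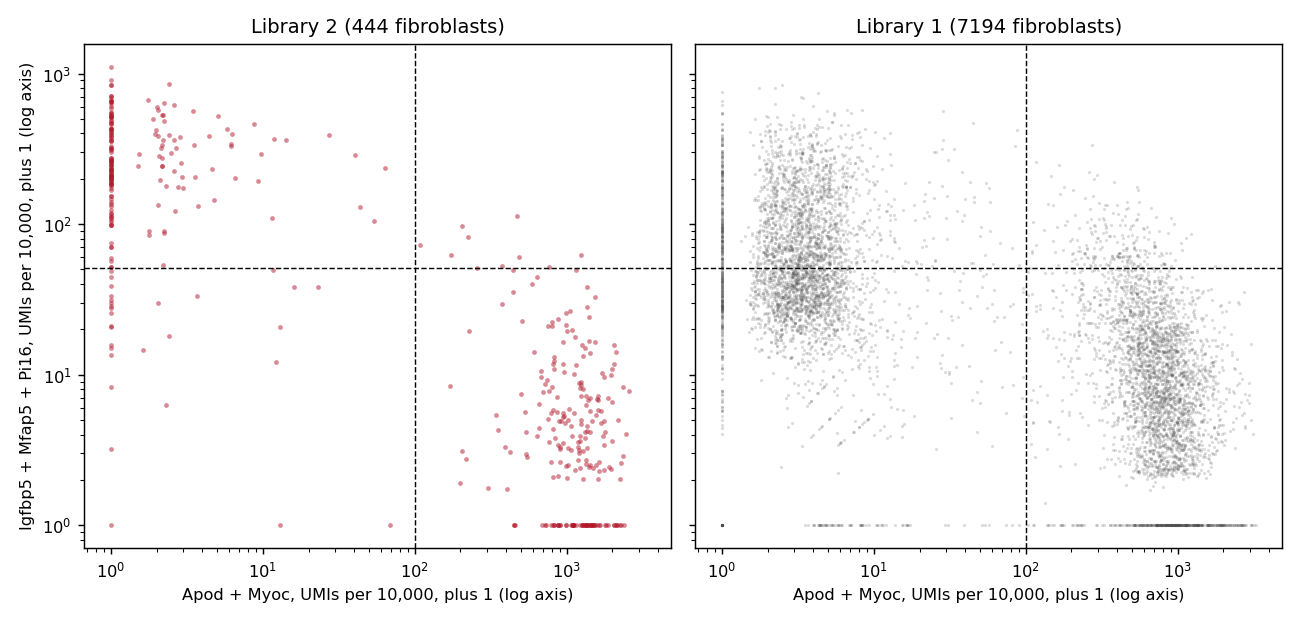
Each point is 1 fibroblast, with Apod plus Myoc on the x axis and Igfbp5 plus Mfap5 plus Pi16 on the y axis, both as UMIs per 10000 plus 1 on log axes; dashed lines mark the cutoffs of 100 and 50 per 10000. In library 2 (left) 229 cells lie in the lower right and 176 in the upper left, with 10 in the upper right; in library 1 (right) the same clouds appear and more cells (26%) lie below both cutoffs.

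The start regions of the genes that define the split are shown because Apod and Myoc were counted together in the split. A search was made for TATAAA, the core of a TATA box, on the gene strand from 40 to 20 bases before the annotated start. It was found in Apod (33 bases before the start, chr11:82935970-82936269, plus strand) and in Myoc (26 bases before, chr13:77509713-77510012, plus strand). The windows of Igfbp5, Mfap5 and Pi16 held none. Of 33469 promoters of the same length, 1.37% had a match there. The sequences are from RefSeq, build GRCr8, 250 bases before to 50 after the start, 5′ to 3′, and capitals mark the match; a match is not evidence of a working site.
Apod: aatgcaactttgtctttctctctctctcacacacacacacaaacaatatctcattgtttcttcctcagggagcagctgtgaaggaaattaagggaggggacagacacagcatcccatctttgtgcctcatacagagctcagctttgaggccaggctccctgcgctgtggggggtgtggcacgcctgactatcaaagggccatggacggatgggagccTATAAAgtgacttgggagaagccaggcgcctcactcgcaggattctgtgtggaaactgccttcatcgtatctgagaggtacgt
Myoc: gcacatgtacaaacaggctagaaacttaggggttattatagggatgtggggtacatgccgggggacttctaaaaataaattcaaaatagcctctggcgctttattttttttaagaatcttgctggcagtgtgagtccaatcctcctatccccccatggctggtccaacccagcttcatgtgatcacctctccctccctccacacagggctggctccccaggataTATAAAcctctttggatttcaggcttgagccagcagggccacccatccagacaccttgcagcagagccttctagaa

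Setting the 2 kinds of cell side by side, 487 of 6675 genes tested (7.3%) were past 2-fold higher in Apod Myoc cells and 797 (11.9%) past 2-fold lower, with a median log2 ratio of -0.21 over all tested genes. A gene counted as tested if its higher level came to 20 UMIs or more on the side with fewer UMIs. Scaled by the median of ratios the counts were 605 and 605; the median of ratios raised all log2 ratios by 0.18. The split genes themselves had 105681 CPM of Apod and 11892 CPM of Myoc in Apod Myoc cells, against 38.7 and 163 CPM in Igfbp5 Mfap5 Pi16 cells. Igfbp5 had 337 CPM in Apod Myoc cells and 24996 CPM in Igfbp5 Mfap5 Pi16 cells, Mfap5 166 and 4212 CPM, and Pi16 131 and 4193 CPM.

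Ramp1 and Aldh1a1 stood far higher on the Apod Myoc side. Ramp1, a partner of the receptor for the neuropeptide CGRP, had 1395 CPM in Apod Myoc cells and 1.41 CPM in Igfbp5 Mfap5 Pi16 cells; the level in Igfbp5 Mfap5 Pi16 cells rests on 2 UMIs, and the log2 ratio lies between 8.1 and 13.0. Its relative Ramp3 had 478 and 8.45 CPM (log2 5.82), and in library 1 the log2 ratios of Ramp1 and Ramp3 were 5.13 and 6.87. Aldh1a1, which makes retinoic acid, had 710 CPM in Apod Myoc cells and a single UMI on the other side, with a log2 ratio between 7.5 and 15.28, against 7.29 in library 1. In libraries 3 and 4 Aldh1a1 had under 1 CPM on either side. Other genes on this side were the kinase inhibitor Cdkn2b (146 CPM, 0 UMIs on the other side), the cartilage-type collagen Col9a1 (108 CPM, 0 UMIs on the other side), the growth factor receptor Fgfr2 (76.9 and 2.82 CPM), the T-box factor Tbx18 (84.9 and 1.41 CPM, log2 ratio between 4.03 and 8.97) and Etv4, an ETS factor (57 and 2.11 CPM, log2 ratio between 3.16 and 7.06). Col9a1 was uneven, with 29 of the 444 cells holding a UMI and 5 of them holding 61.1% of its 175 UMIs. Thbs4, a matrix glycoprotein, had 1214 and 81.7 CPM (log2 3.89), and the basement membrane collagen Col15a1 2117 and 266 CPM (log2 2.99). Of the gate genes, Dcn was past 2-fold higher on the Apod Myoc side (24297 and 7095 CPM) and so was Lum (6363 and 3077 CPM), while Pdgfra had 166 and 286 CPM.

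Secreted Wnt antagonists and several matrix genes stood far higher on the Igfbp5 Mfap5 Pi16 side. Sfrp2, a secreted Wnt antagonist, had 0 UMIs in Apod Myoc cells and 334 CPM in Igfbp5 Mfap5 Pi16 cells; taking 3 UMIs as the limit on the empty side, its log2 ratio was -7.49 or lower. Sfrp4, of the same family, had 2.48 and 1109 CPM (log2 -8.8). Tnfrsf11b, a decoy receptor for RANKL, had 0 UMIs in Apod Myoc cells and 127 CPM on the other side. The ceramide-forming phosphodiesterase Smpd3 had 1.86 and 491 CPM (log2 ratio between -10.32 and -6.49), Ccdc80, a matrix protein, 1.86 and 700 CPM (between -10.84 and -7.0), and Cilp, a cartilage matrix protein, 0 UMIs and 157 CPM. The collagen Col14a1 had 1.24 and 80.2 CPM. The log2 ratio of Col14a1 lay between -9.08 and -4.13 in library 2 and was -5.09 in library 1, 0.06 in library 3 and -0.44 in library 4. Aspnl1 had 1 UMI in Apod Myoc cells and 1165 CPM on the other side, with a log2 ratio between -16.18 and -8.4.

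The same split, made with the same 5 genes in the other libraries (in libraries 3 and 4 with next to no Myoc, and in library 3 with erythroid markers in most cells), gave many of the same genes in cells that the library 2 split had not used. In library 1, 930 of 11354 tested genes (8.19%) were past 2-fold higher in Apod Myoc cells and 1590 (14%) lower. With the 5 split genes left out, 469 and 447 genes of the 6589 tested in both libraries were past 2-fold higher on the Apod Myoc side in library 2 and in library 1, and 286 were shared (61% of the library 2 genes, 64% of the library 1 genes), where 6.78% of all genes were called in library 1. Shared genes lower on that side numbered 420 (53.4% of 786 in library 2 and 60.5% of 694 in library 1, against 10.5% of all genes). Genes past 2-fold in opposite directions were 18 and 8. For library 3 the shared genes were 252 higher (60.9% of the library 2 genes, 7.97% of all) and 352 lower (48.4%, 10.1%). For library 4 they were 206 higher (48.9%, 6.22%) and 297 lower (41.5%, 8.9%).

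**Figure D2:**
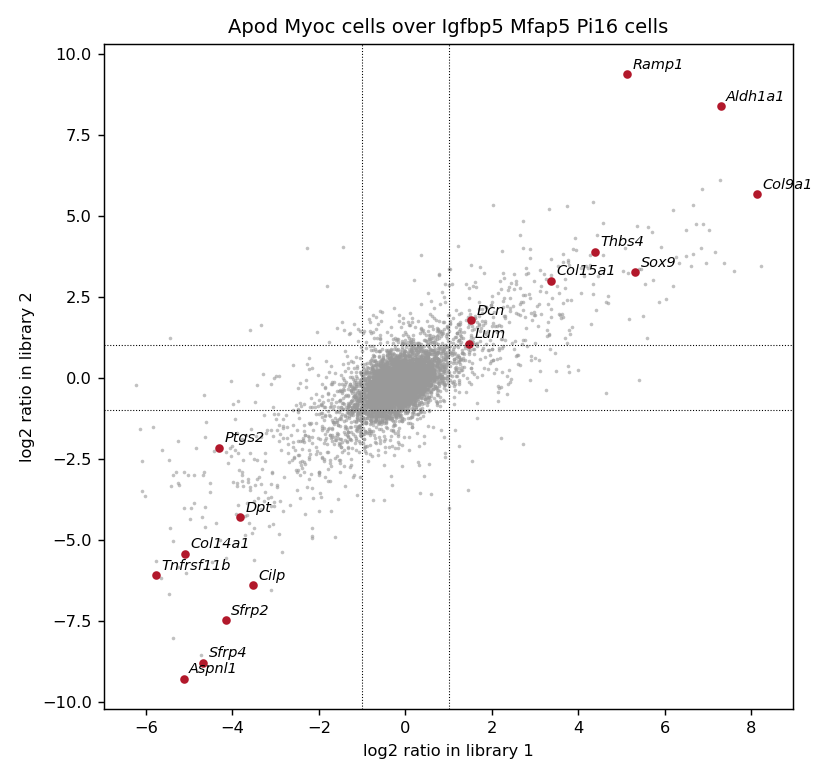
Each grey point is 1 gene, with the log2 ratio of Apod Myoc cells over Igfbp5 Mfap5 Pi16 cells in library 1 on the x axis and the same ratio in library 2 on the y axis; dotted lines mark 2-fold. The 6589 genes exclude the 5 split genes, and the red names are examples, such as Thbs4 (3.89 in library 2, 4.38 in library 1) and Sfrp4 (-8.8 and -4.68).

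Gene lists placed the sides as follows. Over all tested genes 7.3% were past 2-fold higher in Apod Myoc cells of library 2 and 11.9% lower, with 8.19% and 14% in library 1. Of 6 tested endoneurial genes, 5 were higher in Apod Myoc cells (median log2 2.34; library 1 3.86), namely Sox9, Osr2, Etv1, Cdkn2a and Abca9, and the chemokine gene Cxcl14 lower (0 UMIs and 35.9 CPM). Of 6 tested epineurial or adventitial genes, 5 were lower in Apod Myoc cells and 1 was higher (Dpp4), with a median of -3.03. Pi16 of that list was left out of the count because the split used it. Cholesterol synthesis genes went 1 way, with 9 of 13 past 2-fold higher in Apod Myoc cells and 0 lower (median 1.14; library 1 13 of 15 and 1.86). Examples were Msmo1 (255 and 50 CPM) and Sqle (112 and 44.3 CPM). Wnt modulators were 3 higher and 7 lower of 12, and collagens other than the fibrillar ones 7 higher and 2 lower of 12. Of the retinoid genes, 4 of 12 were higher and 6 lower: Aldh1a1 and Cyp26b1 (60.1 and 1.41 CPM) stood on the Apod Myoc side, while Aldh1a3 (4.96 and 93.6 CPM) and Crabp2 (13 and 241 CPM) stood on the other. In the chemokine list the library 2 sides differed from those of library 1. Of 13 tested genes, 8 were past 2-fold higher and 4 lower in Apod Myoc cells of library 2, against 3 higher and 8 lower of 18 in library 1. Il6 had 175 and 61.9 CPM in library 2 (log2 1.5), with -1.09 in library 1, and Cxcl10 665 and 198 CPM (1.75), with -0.57 in library 1. Immediate early genes did not separate the sides, with Nr4a2 higher, Klf4 lower and the rest of 19 inside 2-fold.

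A few leading genes rested on single cells and are given for that reason only. S100a8, a neutrophil gene, had 136 UMIs in the 444 cells, of which 133 lay in 1 cell. S100a9 had 125 of its 126 UMIs in 1 cell. Dlk1 had 61 of 66 UMIs in 1 cell, and Msln, a mesothelial and perineurial marker with 3 UMIs in the other barcodes and a log2 ratio between 8.66 and 12.52, had 176 UMIs in 22 cells, of which 5 held 69.9%.

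Against the other barcodes of library 2, 1573 of 9441 tested genes (16.7%) were past 2-fold higher in the fibroblasts and 2487 (26.3%) past 2-fold lower, with a median log2 ratio of -0.24. Of these other barcodes 5089 carried the neuron genes of the gate as their strongest class (at least 40 per 10000), and 1696 the markers of Schwann or satellite glia, 582 endothelial, 248 macrophage and 196 mural markers (at least 20 per 10000). Matrix gene lists stood mostly higher in the fibroblasts. Fibrillar collagens were higher in 6 of 7 genes (median log2 5.24), other collagens in 13 of 13 (4.62), proteoglycans in 9 of 10 (6.25), collagen-processing enzymes in 15 of 15 (2.91), and matrix glycoproteins in 27 of 32 with 1 lower (4.6). With the neuron-gene barcodes left out of the other side, these medians were 3.64, 2.27, 4.85, 1.98 and 3.33, and Col4a1, a basement membrane collagen among the 13, turned to a log2 ratio of -0.25. The proteoglycan list holds the gate genes Dcn (8.57) and Lum (8.48), whose values chose the cells. Its count and its medians are therefore partly set by the gate. Col3a1, a fibrillar collagen, had 16550 CPM in the fibroblasts and 105 CPM in the other barcodes. Fn1, fibronectin, had 2227 and 30.2 CPM. Beyond structure, complement genes were higher in 6 of 9 with 2 lower, retinoid genes in 11 of 13 with 1 lower, and transcription factors of mesenchyme in 19 of 26 with 3 lower. Among genes of at least 50 CPM, those with the highest ratios after Msln included Myoc (8.81), Bmp7 (8.74), Aldh1a1 (8.63), Itgbl1 (8.52), the hyaluronan synthase Has1 (8.45), Adamts2, which trims procollagen (8.35), the ferritin receptor Scara5 (8.32) and Col9a1 (8.22), apart from the gate genes Dcn and Lum and the split gene Apod.

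Cholesterol synthesis genes stood lower than in the other barcodes in 13 of 15 genes (median -1.91), and MHC class II genes in 5 of 5 (median -5.42). Neither list was lowest in the fibroblasts alone. Cholesterol list totals were 1338 CPM in fibroblasts, 8330 in glial, 661 in endothelial and 1086 in macrophage marker cells of library 2. Class II totals were 8.4, 57.7, 10.4 and 20763 CPM in the same order. Cd74 had 3.6 CPM in fibroblasts and 3.93 CPM in mural marker cells. Among genes of at least 50 CPM in the other barcodes, the lowest ratios included those of the class II genes RT1-Da (-5.92), RT1-Db1 (-5.42) and Cd74 (-5.38), the lymphatic chemokine Ccl21 (-5.75), and neuron genes such as Snhg11 (-5.26), Npy1r (-4.74), the sodium channel gene Scn11a (-4.63) and Ank3 (-4.56). Respiratory chain genes of the mitochondrial genome were lower in 4 of 13, a share near the 26.3% of all tested genes. Immediate early genes were higher in 14 of 19 (median 1.3), but with the neuron-gene barcodes left out of the other side their median was -0.26. Fos, for example, had 3742 CPM in the fibroblasts and 259 CPM in neuron-gene barcodes, and 5292 CPM in glial, 4354 CPM in endothelial and 4255 CPM in mural marker cells.

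Neuronal transcripts were present in the fibroblasts, for most genes shown at levels close to those in glial and endothelial marker cells of library 2 and below those in mural and macrophage marker cells. Calca, which encodes the neuropeptide CGRP, had 398 CPM in the fibroblasts, 441 in glial, 447 in endothelial, 865 in mural and 874 in macrophage marker cells, against 4689 in neuron-gene barcodes. Stmn2, one of the gate's neuron genes and a tubulin-binding protein of axons, had 521 CPM in the fibroblasts, 543, 546, 1006 and 1199 CPM in those 4 classes, and 5392 CPM in neuron-gene barcodes. The gate capped the sum of its neuron genes in the fibroblasts but not in the 4 marker classes. The level of Stmn2 in the fibroblasts is therefore partly set by the gate. Tac1, the substance P gene, followed with 220 CPM in the fibroblasts, 208 in glial and 218 in endothelial cells. Sncg, the gene of gamma-synuclein, was an exception among the neuron markers, with 2098 CPM in the fibroblasts and 2127 CPM in endothelial cells but 6835 CPM in glial cells. Glial cells of library 1 also held it (3764 CPM, against 12.8 CPM in library 1 fibroblasts). The 10 neuron markers outside the gate, Sncg included, summed to 38.6 per 10000, and 439 of the 444 cells passed the level of 3 UMIs and 10 per 10000. In library 1 fibroblasts Calca had 0.129 CPM and the 10 markers summed to 0.78 per 10000. What part RNA from neurons had in any difference between libraries was not tested.

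**Figure D3:**
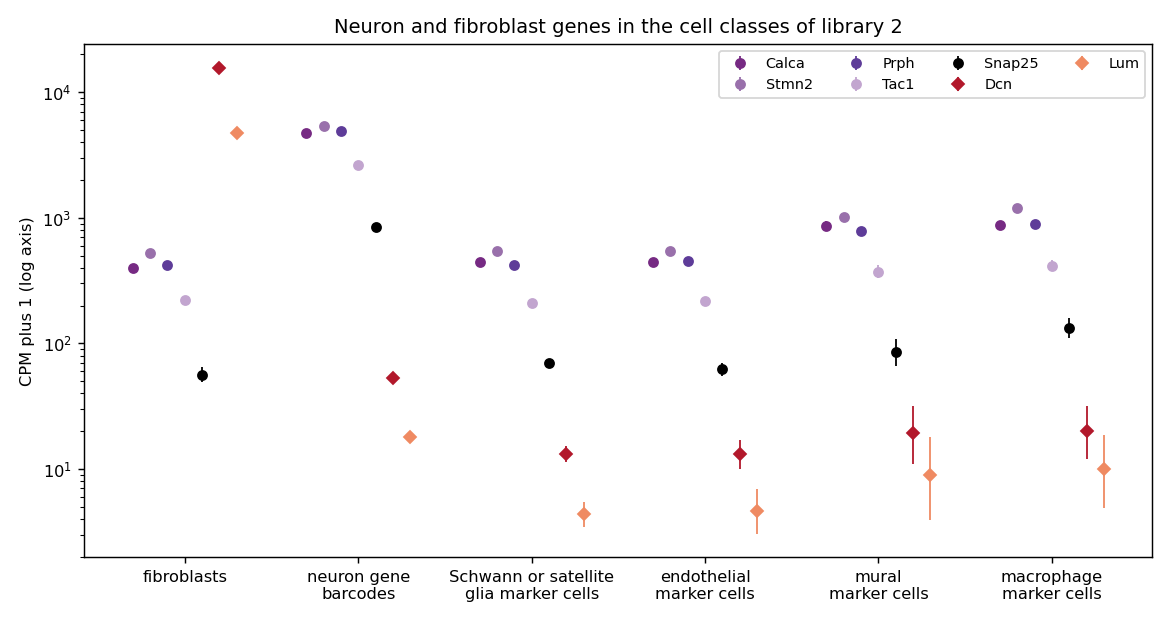
Points are CPM plus 1 on a log axis of 5 neuron genes (circles) and the gate genes Dcn and Lum (diamonds) in the cell classes of library 2, with exact 95% intervals. Of the neuron genes, Stmn2, Prph and Snap25 also belong to the gate, which capped them together with Nefl in the fibroblasts. Calca and Tac1 do not. The 5 neuron genes plotted stand in the fibroblasts close to their levels in glial and endothelial marker cells (Calca 398, 441 and 447 CPM). Dcn stands at 15644 CPM in fibroblasts, against 12.1 to 52.2 CPM in the other classes. Those classes are barcodes that failed the gate, so the gap in Dcn and Lum largely follows from the choice of cells.

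The contrast with library 1 uses the same 444 cells as the one with the other barcodes. Against library 1, 959 of 8674 tested genes (11.1%) were past 2-fold higher in library 2 fibroblasts and 356 (4.1%) past 2-fold lower, with a median log2 ratio of 0.16. Scaled by the median of ratios, the counts were 758 higher and 502 lower, and with TMM scaling 755 and 506. Among genes of at least 50 CPM, those with the highest ratios were mostly genes of neurons. They included Calca (398 CPM in library 2 fibroblasts, log2 ratio 11.59), the neurofilament genes Nefl (10.22) and Nefm (7.51), Stmn3 (8.47), Stmn2 (7.52), Fgf13 (8.23), Mt3 (7.66), the pigment gene Tyrp1 (10.19) and Cst6 (8.46). For Snap25 and Ppp1r1c the library 1 level rests on 1 and 2 UMIs, and the log2 ratios lie between 9.26 and 17.06 and between 9.76 and 14.67. Nefl, Stmn2 and Snap25 are neuron genes of the gate, which capped their sum in the cells of both libraries. Their ratios are therefore taken between cells chosen on these values. Calcb had 70.2 CPM in library 2 and 0 UMIs in library 1, with a log2 ratio of at least 10.51 at a limit of 3 UMIs. Tyrp1 had 94.2 CPM in the fibroblasts, 1968 CPM in glial marker cells of library 2, and 46 of the 444 cells held it. Of the 314 Tyrp1 UMIs in the fibroblasts, 67.2% lay in 5 cells. Cst6, a cystatin, had 130 CPM, with 54.3% of its 433 UMIs in 1 cell.

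Among genes of at least 50 CPM in library 1, the lowest ratios belonged to immune genes. The class II gene RT1-Da had 1.5 CPM in library 2 fibroblasts and 308 CPM in library 1 fibroblasts, Cd74 3.6 and 488 CPM, and the complement gene C1qa 0.6 and 118 CPM. In library 1, Cd74 stood at 488 CPM in fibroblasts, 246 in glial, 28.5 in endothelial and 19668 in macrophage marker cells, and macrophage markers at or past 3 UMIs and 10 per 10000 were found in 407 of 7194 fibroblasts of library 1 and 2 of 444 in library 2. The part of macrophage RNA in these differences was not tested. All 5 tested class II genes were past 2-fold lower (median -7.18), and the median was -4.24 when cells with markers of another class were left out on both sides. Other classes were lower than in library 1 as well: 5 of 5 in glial (median -3.27), 2 of 2 in endothelial (-3.29) and 5 of 5 in macrophage marker cells (-1.56). Over all tested genes 4.1% were past 2-fold lower in the fibroblasts, and 21.4%, 12.1% and 7.32% in those classes. Fmod, a collagen-binding proteoglycan, had 4.2 and 117 CPM (log2 -4.8).

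Fibrillar collagens and several other matrix genes were lower in library 2. Fibrillar collagens were past 2-fold lower in 5 of 7 genes and higher in 0 (median -1.24). Within Apod Myoc cells 2 of 7 were past 2-fold lower (median -0.92), and within Igfbp5 Mfap5 Pi16 cells 5 of 7 (median -1.26). Over all tested genes, 11.1% were past 2-fold higher and 4.1% lower than in library 1. The shares lower within Apod Myoc cells and within Igfbp5 Mfap5 Pi16 cells were 3.48% and 4.88% of all tested genes. Col1a1, the major chain of type I collagen, had 9814 CPM in library 2, 54308 CPM in library 1, 10175 CPM in library 3 and 26606 CPM in library 4; the log2 ratio to library 1 was -2.47 (-2.48 to -2.45). Within Apod Myoc cells Col1a1 had 13354 CPM in library 2 and 25381 CPM in library 1, and within Igfbp5 Mfap5 Pi16 cells 6103 and 54374 CPM, so both kinds of cell were lower and the Igfbp5 Mfap5 Pi16 cells more so. The order of the 2 kinds of cell for Col1a1 was thus opposite in the 2 libraries (log2 1.13 in library 2 and -1.1 in library 1). Col1a2, its partner chain, had 143 CPM against 578 CPM, and Col3a1 16550 against 37952 CPM, while Col11a1 (201 and 209 CPM) and Col5a3 (163 and 224 CPM) stayed inside 2-fold. Fibrillar collagens were also lower than in library 1 in 4 of 6 tested genes in glial, 2 of 2 in endothelial and 3 of 3 in macrophage marker cells. Over all tested genes 21.4%, 12.1% and 7.32% were past 2-fold lower in those classes. The collagen-processing enzymes were lower in 4 of 15: P4ha2, a prolyl hydroxylase (76.2 and 241 CPM), the crosslinking oxidases Lox (298 and 684 CPM) and Loxl2, and the proteinase enhancer PCOLCE2. Matrix glycoproteins split 4 higher and 6 lower of 33, with the higher share near that of all tested genes. Sparc, a collagen-binding protein, had 8081 CPM in library 2 and 27187 CPM in library 1, and Postn, a matrix protein of growing connective tissue, 157 and 832 CPM. Mgp, an inhibitor of calcification, went the other way (5691 and 2375 CPM).

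Signalling and regulatory genes differed in both directions. Wnt modulators split 3 higher and 3 lower of 14 (median -0.25), beside 11.1% and 4.1% of all tested genes. Sfrp4 had 486 CPM in library 2 and 2412 CPM in library 1, and Sfrp1 51 and 500 CPM. Rspo2 (log2 4.74) and Lef1 (2.7) went the other way. Igfbp6 had 2956 and 8555 CPM, and Igfbp5 11072 and 2959 CPM, each a binder of insulin-like growth factors. The growth factors split 7 higher and 8 lower of 29. Over all tested genes 11.1% were past 2-fold higher and 4.1% lower. Ptn, pleiotrophin, had 924 and 68.4 CPM (log2 3.76), yet other classes of library 2 had more of it, with 5671 CPM in glial and 5492 CPM in endothelial marker cells. Among the others, Bmp2 (129 and 40.8 CPM), Bmp7 (81.6 and 29.5 CPM) and Inhba (42.6 and 6.26 CPM) were higher, and Vegfd (1.5 and 30.3 CPM) lower. Retinoid genes were past 2-fold higher in 6 of 12 and lower in 0, with Crabp2, which carries retinoic acid into the nucleus, at 127 and 18.6 CPM and Rdh10 at 120 and 28.8 CPM. Foxc1, a transcription factor of meningeal and vascular mesenchyme, had 135 and 38.5 CPM.

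Immediate early genes, which switch on within minutes of a stimulus, were higher in library 2 in 15 of 19 tested genes and lower in 0 (median 1.52). Over all tested genes 11.1% were past 2-fold higher and 4.1% lower than in library 1. Fos had 3742 CPM in library 2, 844 in library 1, 2032 in library 3 and 1965 in library 4 fibroblasts. Egr1 had 2909, 563, 1292 and 1908 CPM in the same libraries, Junb 3479, 1168, 1646 and 1607 CPM, and Dusp1, which inactivates stress kinases, 1447, 506, 699 and 509 CPM. Library 2 was the highest of the 4 for each of these 4 genes, though not for every gene of the list (Nr4a1 and Klf6 were higher elsewhere). Summed over the list, a cell of library 2 had a median of 244 UMIs per 10000, against 73 in library 1, 125 in library 3 and 135 in library 4. Both kinds of cell showed it: 14 of 19 genes were higher in Apod Myoc cells and 14 of 19 in Igfbp5 Mfap5 Pi16 cells, with 0 lower on either side, where 12% and 10.6% of all tested genes were past 2-fold higher and 3.48% and 4.88% lower. Other cell classes of library 2 also stood above library 1, with list totals of 27097 and 10924 CPM in glial marker cells (8 of 19 higher, where 10.3% of all tested genes were past 2-fold higher and 21.4% lower), 31091 and 9922 CPM in endothelial marker cells (12 of 17 higher and 1 lower, against 14.9% and 12.1% of all genes) and 13034 and 7528 CPM in macrophage marker cells (4 of 17 higher and 0 lower, against 15% and 7.32% of all genes). Heat shock and stress genes differed less as a list. Hspa1a, an inducible heat shock protein, had 2324, 266, 1116 and 479 CPM in libraries 2, 1, 3 and 4. Against library 1, 6 of 18 heat shock and stress genes were higher and 1 lower, beside 11.1% and 4.1% of all tested genes. The other classes did not share this. Glial marker cells had 1 higher and 4 lower of 18 (median -0.16, beside 10.3% and 21.4% of all genes). Endothelial marker cells had 3 and 5 of 17 (-0.3, beside 14.9% and 12.1%), and macrophage marker cells 4 and 3 of 18 (0.06, beside 15% and 7.32%). Within Apod Myoc cells Hspa1a had 1746 CPM in library 2 and 276 CPM in library 1, and within Igfbp5 Mfap5 Pi16 cells 3048 and 263 CPM.

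The promoters of 2 of these genes are shown because Dusp1 and Btg2 hold TGACGTCA, the full cAMP response element, in their start regions. The search covered both strands (the sequence is its own reverse complement). Of 15 immediate early genes with a promoter in the RefSeq table, 3 held it (Btg2, Dusp1 and Jund), against 1.83% of 33469 promoters. Dusp1 lies at chr10:17184603-17184902 on the plus strand, with the match 124 bases before the start, and Btg2, an antiproliferative gene, at chr13:48087641-48087940 on the minus strand, with the match 201 bases before it (GRCr8). Capitals mark the match. A match is not evidence of a working site, and any part of this element in the levels of these genes was not tested.
Dusp1: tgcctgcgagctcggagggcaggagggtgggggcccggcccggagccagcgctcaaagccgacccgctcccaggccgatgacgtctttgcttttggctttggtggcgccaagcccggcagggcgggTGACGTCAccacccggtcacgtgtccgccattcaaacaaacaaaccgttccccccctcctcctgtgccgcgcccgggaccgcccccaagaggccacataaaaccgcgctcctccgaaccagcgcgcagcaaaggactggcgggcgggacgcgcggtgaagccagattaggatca
Btg2: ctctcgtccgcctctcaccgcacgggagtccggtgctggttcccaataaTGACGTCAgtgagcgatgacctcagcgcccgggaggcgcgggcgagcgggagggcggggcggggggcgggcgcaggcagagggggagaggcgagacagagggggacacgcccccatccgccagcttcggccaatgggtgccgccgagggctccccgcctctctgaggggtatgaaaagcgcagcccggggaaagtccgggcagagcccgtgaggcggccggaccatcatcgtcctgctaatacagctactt

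Hox genes, which record position along the body axis, were higher than in library 1 in 6 of 7 tested genes and lower in 1 (median 1.63). Over all tested genes 11.1% were past 2-fold higher and 4.1% lower. Hoxc8 had 96 CPM in library 2 fibroblasts, 7.35 in library 1, 90.6 in library 3 and 8.48 in library 4, so that libraries 2 and 3 stood together above libraries 1 and 4. Hoxb4 (22.8, 0.595, 20.8 and 1.73 CPM) and Hoxb7 (16.2, 0.289, 27.2 and 2.08 CPM) likewise stood higher in libraries 2 and 3 than in libraries 1 and 4. Hoxb4 was also found in glial (91.9 CPM) and endothelial (120 CPM) marker cells of library 2, whereas Hoxc8 had 3.19 and 8.94 CPM there and 72.1 CPM in mural marker cells. In library 1, Hoxb4 had 31.3 CPM in glial and 94.7 CPM in endothelial marker cells. Hox genes past 2-fold higher than in library 1 were 2 of 2 tested in glial and 0 of 3 in endothelial marker cells. Over all tested genes 10.3% and 14.9% were past 2-fold higher in those classes. Hoxc10 was the exception, with 4.8 CPM in library 2 and 19.5 CPM in library 1. Hoxc8 was higher in Igfbp5 Mfap5 Pi16 cells (156 CPM) than in Apod Myoc cells (47.1 CPM) of library 2.

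**Figure D4:**
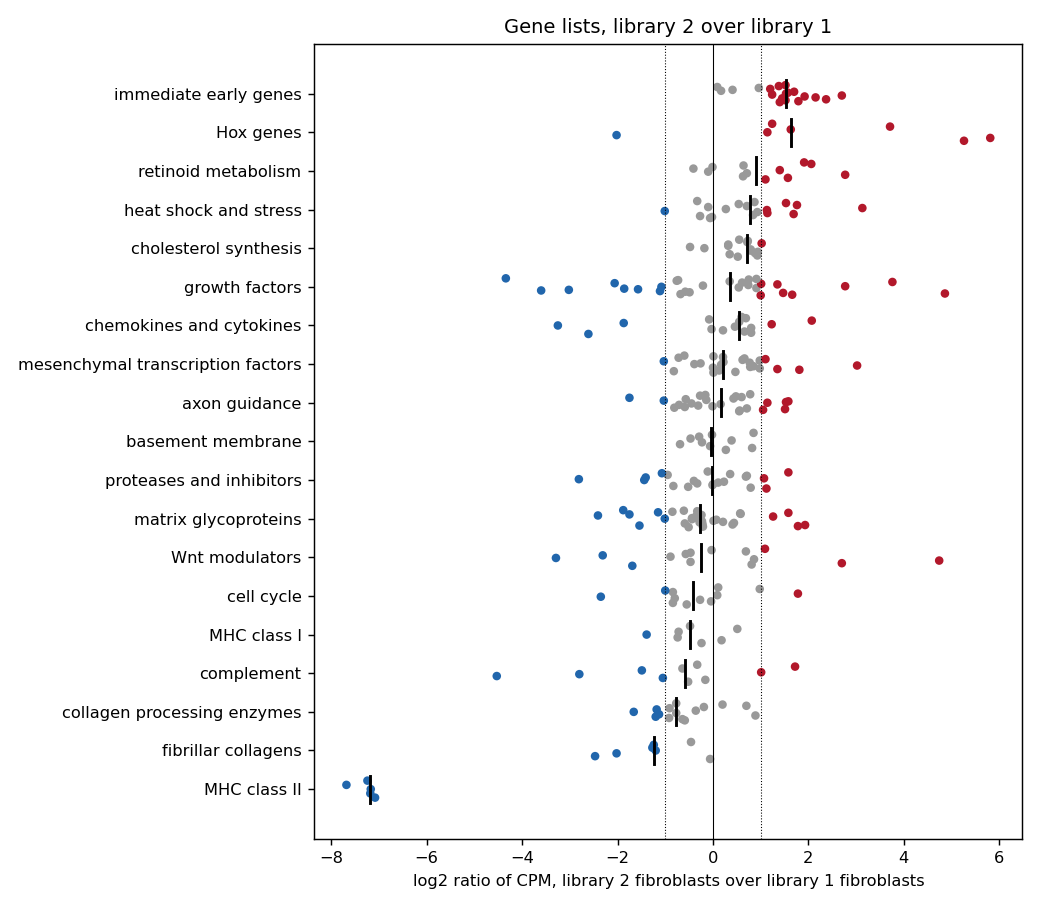
Points are genes of each list that could be tested, placed at the log2 ratio of library 2 over library 1 fibroblasts; red marks past 2-fold higher, blue past 2-fold lower, black bars the list median and dotted lines 2-fold. Immediate early genes (median 1.52) and Hox genes (1.63) lie mostly to the right, fibrillar collagens (-1.24) and MHC class II genes (-7.18) to the left.

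Across the 4 libraries, some genes stood nearer to each other in libraries 2 and 1 than to libraries 3 and 4. Myoc had 6086 CPM in library 2 and 3479 CPM in library 1, but 0.105 and 0.231 CPM in libraries 3 and 4, and Aldh1a1 had 366, 171, 0.105 and 0.231 CPM. Gsn, an actin-severing protein, had 13458, 13023, 1278 and 221 CPM, and Il33, an alarmin, 745, 786, 34.8 and 52.9 CPM. Igf2, a fetal growth factor, had 9.9 CPM in library 2 and 20.9 CPM in library 1, against 2145 and 3446 CPM in libraries 3 and 4. The proliferation gene Mki67 differed between libraries 2 and 1 as well, at 2.1, 10.7, 52.4 and 111 CPM. Pi16 had 1866, 584, 148 and 23.3 CPM, with library 2 the highest.

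**Figure D5:**
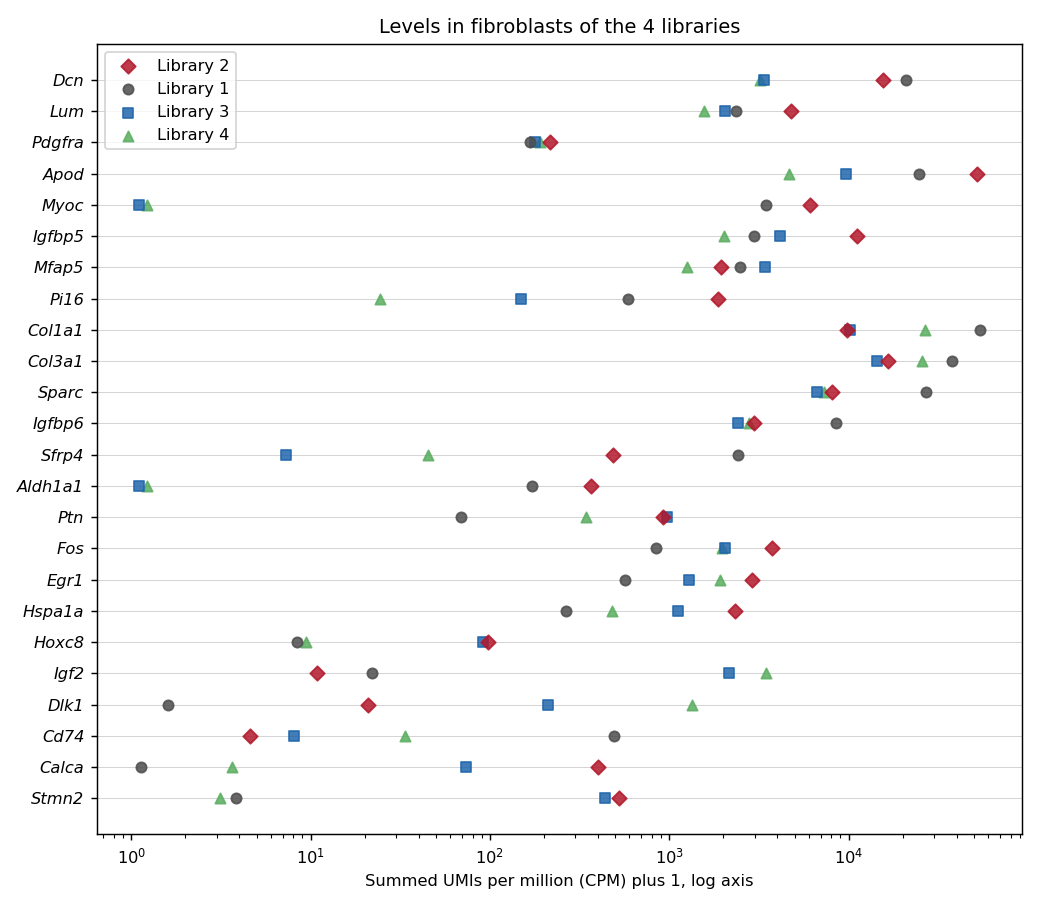
CPM plus 1 on a log axis for 24 genes in the fibroblasts of library 2 (diamonds), 1 (circles), 3 (squares) and 4 (triangles). Libraries 2 and 1 stand nearer to each other than to libraries 3 and 4 for Myoc, Aldh1a1 and Igf2, and libraries 2 and 3 stand near each other for Hoxc8 and Stmn2. Stmn2 is a neuron gene of the gate, which capped it with the other neuron genes in every library, and Dcn, Lum and Pdgfra chose the cells.

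Gene lists for fibroblast subsets were read as shares of cells with at least 1 UMI after thinning each cell to 1000 UMIs, which left out 5 library 2 fibroblasts, 2158 of the 7982 other barcodes and 11 library 1 fibroblasts. The share in the other barcodes of library 2, most of which are not fibroblasts, is the background. The Myoc Thbs4, Pi16 Tnfrsf11b and Ucma Gdf10 Cilp lists bear the names of fibroblast groups of library 1 in these same data. For those lists library 1 is therefore not an independent comparison. The Myoc Thbs4 pair was found in 57.6% of library 2 fibroblasts (52.9% to 62.3%), 4.57% of other barcodes and 55.5% of library 1 fibroblasts, and the Pi16 Tnfrsf11b pair in 34.2%, 2.4% and 19.7%. Without thinning these shares were 63.5%, 7.93% and 76.8% for the first pair and 51.8%, 6.25% and 41.6% for the second. The leptomeningeal list was found in 27.6% of library 2 fibroblasts, 7.95% of other barcodes and 9.16% of library 1 fibroblasts, with 30.3% in library 3 and 20.7% in library 4 (76.1%, 22.9% and 39.3% in the first 3 sets without thinning). Its tested members that stood higher than in library 1 were Foxc1, Foxc2, Aldh1a2 and Crabp2, while the transporter Slc6a13 of that list had 1.8 CPM against 7.62 CPM. The epineurial or adventitial list was found in 55.4% of library 2 fibroblasts, 25.9% of other barcodes and 54% of library 1 fibroblasts, and the endoneurial list in 26.4%, 12% and 31.1%. The Ucma Gdf10 Cilp list was found in 5.92%, 0.137% and 14.4%. Perineurial genes were found after thinning in 20.3% of library 2 fibroblasts and 21.8% of other barcodes, while without thinning the shares were 62.6% and 37.3% and the summed levels 3.57 and 1.98 per 10000, so no order is read from them.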

How the data were processed

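The deposited values were UMI counts per gene and barcode in 1 matrix of 25399 genes, made with Cell Ranger 3.1.0 per the file headers. CASAVA 1.8, Seurat and Rnor_6.0 stand in the submitters' processing notes without a stated role. Barcodes past the filters were split by their final number into 4 libraries. UMIs were summed per set of cells and scaled to CPM. Log2 ratios used a floor of 3 UMIs, and genes needed 20 UMIs on the smaller side's scale. Shares have exact Clopper-Pearson intervals and sums exact Poisson intervals, which cover counting error only. No p-values were computed, since each side is 1 library. Depth per library is given in the report. Members and lists were chosen with earlier results of these data known. Named genes were the gate's genes, the 12 highest and 12 lowest ratios per contrast among genes of at least 50 CPM, the 20 highest levels, the 12 widest spreads and up to 6 genes of each of 34 lists; other genes, such as those named in the Apod Myoc split, were chosen after their values were seen. Of 540 list genes 530 were found. Other scalings, filters, thinning and gates were tried. The contrast code was tested on simulated data. TMM factors came from edgeR 4.0.16; sums and intervals used scipy 1.17.1 under Python 3.11.15.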

Additional observations from a re-analysis of the deposited data

How the results depend on the processing

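No paired analysis was possible because each group has 1 library and the barcodes carry no sample label. Counts of genes moved with thinning, the filter on low counts and the comparison set. Against the other barcodes of library 2 they were 614 higher and 995 lower after thinning to 1000 UMIs, 916 and 1452 at 100 UMIs, 6500 higher with no filter, and 1048 and 1342 without neuron-gene barcodes. Against library 1 they were 291 and 139 after thinning, 1620 and 702 at 5 UMIs, 344 and 151 at 100 UMIs, and 6284 and 702 with no filter. The split gave 838 and 1411 at 5 UMIs, and 171 and 243 at 100 UMIs. The fibroblast share was 6.59% at a mitochondrial limit of 10%, 7.01% with at least 1000 UMIs, 2.49% with neuron genes under 10 per 10000 and 4.49% without cells that carry other markers. Subset shares unthinned, at 2 UMIs and thinned to 2000 UMIs were 86%, 35.5% and 69.6% (epineurial or adventitial), 67.6%, 4.56% and 40% (endoneurial), 76.1%, 5.47% and 46.8% (leptomeningeal), 20.3%, 2.28% and 9.88% (Ucma Gdf10 Cilp), 51.8%, 24.1% and 41.2% (Pi16 Tnfrsf11b), 62.6%, 6.83% and 34.8% (perineurial), and 63.5% unthinned for Myoc Thbs4. The filters on UMIs change how many genes are counted by construction, and leaving out neuron-gene barcodes changes the comparison set. Of 6626 gene and list values, 5750 stayed close (genes on the same side of 2-fold and within 1.5 times), 859 moved further and 17 changed direction, those 17 all against the other barcodes without neuron-gene barcodes: the immediate early median (-0.26), Bst2 (-0.65), Calcb (0.01), Cd55 (0.97), Col4a1 (-0.25), Egr1 (-0.14), Fabp3 (0.81), Fos (-0.35), Fosl1 (-0.25), Hmox1 (-0.38), Igfbp7 (-0.18), Jun (-0.29), Mt2A (-0.53), Ngfr (1.44), Robo2 (0.76), Rspo2 (0.25) and Vim (-0.49). Scaling by the median of ratios changed all log2 ratios by 0.13 against the other barcodes, -0.19 against library 1 and 0.18 in the split, and TMM by 0.12 and -0.2 in the first 2. The split and its alternatives (6 choices) were chosen after seeing the data. Gates of 5 and 20 per 10000, totals without mitochondrial and ribosomal protein genes and other split cutoffs kept each count of genes within 1.5 times. Genes whose higher level came to under 20 UMIs on the side with fewer UMIs were not counted, and levels of a few UMIs in the 444 cells are imprecise. The MHC class II median against library 1 was -4.24 without cells that carry other markers.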
